A study of Mus musculus with 6 samples.

Results

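The integrin chains examined here are 10 of the 26332 genes in the deposited count table: the alpha chain genes Itga1, Itga2, Itga4, Itgae, Itgal, Itgam and Itgax and the beta chain genes Itgb1, Itgb2 and Itgb7. They were taken by name, through their Entrez gene IDs, as the chains by which resident and circulating natural killer (NK) cells and their maturation stages are told apart. RNA-seq was run on NK cells sorted from the thymus of C57BL/6 mice. The groups were 2 libraries from mice with a knockout (KO) of Tcf7 and 4 libraries from wild-type (WT) mice, each from a different animal. KO 1, WT 1 and WT 3 were male, and KO 2, WT 2 and WT 4 were female. Every library was made from thymic cells that carried NK1.1 and NKp46, lacked TCRbeta, CD3 and CD8 and did not bind a CD1d tetramer. Tcf7 encodes TCF-1, a DNA-binding factor needed early in the development of T cells and innate lymphoid cells. The labels name no Tcf7 allele, Cre driver or age, so a germline loss and a loss restricted to some cells cannot be told apart.

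An integrin is a surface receptor made of an alpha and a beta chain, and the alpha chain mostly sets which ligand is bound. Chains are sorted into dimers by partner: Itgb1 encodes CD29, the partner of CD49a (Itga1), CD49b (Itga2) and CD49d (Itga4), Itgb7 encodes the partner of CD49d and CD103 (Itgae), and Itgb2 encodes CD18, the partner of CD11a (Itgal), CD11b (Itgam) and CD11c (Itgax). CD49a and CD103 are known from tissue-resident lymphocytes, CD49b from circulating NK cells of the mouse, and CD11b from mature mouse NK cells. Integrins are kept inactive on resting cells and are opened from inside by talin and kindlin, which bind the tail of the beta chain.

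The 250 bases before the RefSeq transcription start (GRCm38.p6, the same build as mm10) are shown for the 5 chains that passed the test below and have an entry in the promoter table, because TCF-1, T-box and RUNX factors are known regulators of NK cell genes. The sequences run in the direction of the gene and end at the base before the start. Capitals mark matches, on either strand, to the letters CTTTGA or CTTTGT (the TCF/LEF core, the second also a SOX core), AGGTGT (T-box) or TGTGGT (RUNX). The Itga1 window lies at chr13:115101965-115102214 (minus strand), Itga2 at chr13:114932101-114932350 (minus), Itga4 at chr2:79255176-79255425 (plus), Itgb1 at chr8:128685404-128685653 (plus) and Itgb7 at chr15:102231936-102232185 (minus). The Itgb7 start used here lies inside the span of the gene given below, downstream of its first base.
Itga1: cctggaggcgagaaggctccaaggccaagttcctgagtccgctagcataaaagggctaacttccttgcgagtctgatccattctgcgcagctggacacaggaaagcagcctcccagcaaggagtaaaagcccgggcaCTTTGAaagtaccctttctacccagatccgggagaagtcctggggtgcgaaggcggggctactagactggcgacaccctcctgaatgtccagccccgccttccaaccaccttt
Itga2: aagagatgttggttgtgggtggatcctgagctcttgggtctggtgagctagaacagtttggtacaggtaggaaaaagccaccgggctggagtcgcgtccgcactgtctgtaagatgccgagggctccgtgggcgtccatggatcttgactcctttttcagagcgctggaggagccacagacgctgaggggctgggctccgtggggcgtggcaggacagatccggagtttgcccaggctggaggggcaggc
Itga4: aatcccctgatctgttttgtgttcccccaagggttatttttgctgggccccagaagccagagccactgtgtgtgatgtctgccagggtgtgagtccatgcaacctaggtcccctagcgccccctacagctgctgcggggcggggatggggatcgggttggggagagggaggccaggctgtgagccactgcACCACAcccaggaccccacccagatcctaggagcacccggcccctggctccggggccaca
Itgb1: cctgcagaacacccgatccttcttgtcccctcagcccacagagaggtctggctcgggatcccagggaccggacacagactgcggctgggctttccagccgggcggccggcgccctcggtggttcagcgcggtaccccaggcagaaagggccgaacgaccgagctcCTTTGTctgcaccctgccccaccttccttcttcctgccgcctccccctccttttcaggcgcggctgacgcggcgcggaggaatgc
Itgb7: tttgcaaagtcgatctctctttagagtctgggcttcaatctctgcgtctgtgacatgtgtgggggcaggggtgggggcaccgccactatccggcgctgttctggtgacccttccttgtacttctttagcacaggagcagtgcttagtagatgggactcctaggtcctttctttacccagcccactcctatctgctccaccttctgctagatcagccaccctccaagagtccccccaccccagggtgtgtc

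In the Itga1 window CTTTGA stands 113 to 108 bases before the start. In Itgb1 CTTTGT stands 85 to 80 bases before it, and in Itga4 TGTGGT is read on the opposite strand, as ACCACA, 60 to 55 bases before it. The Itga2 and Itgb7 windows hold none of the 4 motifs. Of the 7 chains with an entry, the remaining ones being Itgam and Itgax, 2 hold CTTTGA (Itga1 and Itgam), 1 holds CTTTGT, 1 holds TGTGGT and 0 hold AGGTGT. The shares over all 32851 promoters of the table, in windows of the same length, are 13.8% for CTTTGA, 16.5% for CTTTGT, 14.0% for TGTGGT and 11.8% for AGGTGT. These are matches of letters and not measured binding sites. Itgae, Itgal and Itgb2 are named without a sequence.

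Levels are given as CPM, read counts scaled to a common library size by the TMM method. The total of gene counts was 16418910 to 31155303 per library, and 3 counts, used as the floor of detection, correspond to 0.0989 to 0.18 CPM. Tcf7 itself (chr11:52246527-52283383) had 268 and 452 CPM in KO 1 and KO 2, against 943, 947, 811 and 880 CPM in WT 1 to WT 4 (log2 fold change -1.35, SE 0.17, adjusted p = 2.94e-03). Counts per gene do not separate exons, so reads outside a deleted part cannot be told from intact transcript. The 9 NK markers summed to 11535 and 8950 CPM in KO, against 11173 to 11633 CPM in WT, and 2 of them, Klrb1c and Eomes, were called lower in KO (Klrb1c, the NK1.1 gene, was named after its values were seen). Both KO libraries were below the WT range in 4 of the 9, against 18.8% of all genes. The log2 fold change was below 0 in 8 of the 9, though close to 0 in Klrd1 and Tbx21 (-0.05 each). The exception, Gzma, was the largest of the 9 in every library, with 4268 and 3195 CPM in KO and 2342 to 3413 CPM in WT. The sum is thus weighted to Gzma and does not show how the other markers differed, and 7 of the 9 were not called. Markers of other cells also differed between the groups. Over all genes tested, 8.13% were called higher in KO and 5.58% lower. The 12 alpha-beta T cell markers summed to 1722 and 2142 CPM in KO and 471 to 749 CPM in WT (4 called higher, 1 lower). The 8 B cell markers summed to 208 and 57.3 CPM in KO and 9.89 to 22.3 CPM in WT (6 called higher). Early response genes ran the other way, with 447 and 579 CPM in KO and 841, 792, 3456 and 6427 CPM in WT 1 to WT 4. WT 3 and WT 4 thus stood apart, and counts are also given without them.

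The chains did not move as a block. Of the 10, all 10 passed the filter on low counts, 3 were called higher in KO (Itga1, Itgae and Itgb7) and 4 lower (Itga2, Itga4, Itgal and Itgb1), at an adjusted p under 0.05 in edgeR's quasi-likelihood test with Benjamini-Hochberg adjustment over 13652 genes. Itgam, Itgax and Itgb2 were not called. The members' share of calls was 70%, against a background of 13.7% of all genes tested, with 8.13% called higher and 5.58% called lower. The chains and the gene lists below were chosen with earlier results of these data known, so their shares do not test for an excess of calls. Both KO libraries lay outside the range of the 4 WT libraries for 8 of the 10 chains, 3 above and 5 below. That holds for 39.3% of all genes, 20.5% above and 18.8% below. The median log2 fold change of the chains was -0.36, against 0.02 over all genes tested. Without KO 2, of the 4 lower calls only Itgb1 was made. Without WT 1, only Itga2 and Itgb1 were. Without WT 3 and WT 4 together, 2 chains were called higher and 5 lower, with Itgb7 lost and Itgb2 gained. Under RLE, upper-quartile and library-size scaling the same 7 chains were called.

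**Figure D1:**
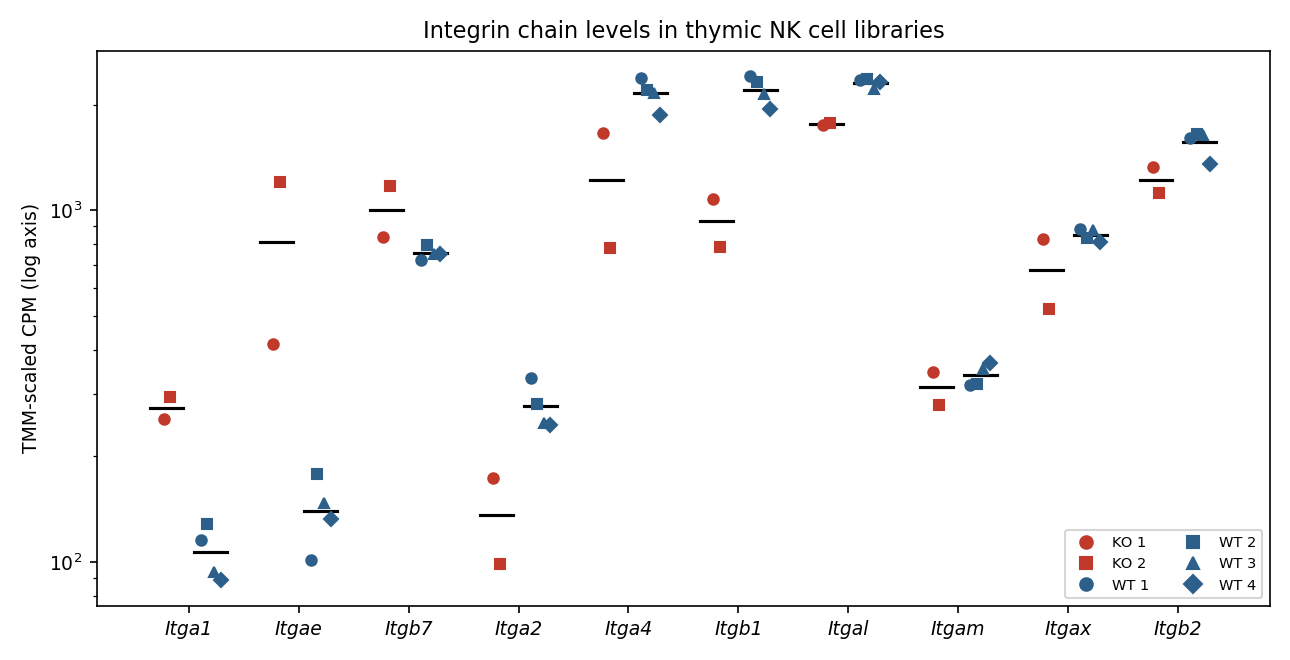
Level of the 10 integrin chains in each library as TMM-scaled CPM on a log axis, with KO libraries (red) left of WT libraries (blue) and a bar at each group's mean. Points for Itga1, Itgae and Itgb7 are higher in both KO libraries than in any WT library, those for Itga2, Itga4, Itgb1, Itgal and Itgb2 are lower, and those for Itgam and Itgax overlap.

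The plot of levels by library shows 3 sets of chains, and within the KO group it shows KO 1 and KO 2 far apart for Itgae and Itga4. In sorted bulk samples, a difference in level can reflect fewer cells of a type or less RNA per cell, and these cannot be told apart.

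The collagen receptor genes of the alpha group lie side by side on chromosome 13 and moved in opposite directions. Itga1 (Entrez gene 109700, chr13:114958079-115101964, minus strand) encodes CD49a, the alpha chain of a collagen IV receptor of tissue-resident NK cells. It had 255 and 294 CPM in KO 1 and KO 2, against 115, 128, 93.8 and 88.5 CPM in WT 1 to WT 4. Both KO libraries were above every WT library. The means were 275 ± 26.9 CPM in KO (SD, n = 2) and 107 ± 18.6 CPM in WT (SD, n = 4), and the SDs given for the other chains have the same n. This was a fitted 2.57-fold rise (log2 fold change 1.36, SE 0.16, adjusted p = 2.38e-03). Its call was made under all 17 alternatives tried, with log2 fold changes of 1.17 to 1.48.

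Itga2 (Entrez gene 16398, chr13:114833081-114932100, minus strand) is separated from Itga1 by 25978 bases and encodes CD49b, the collagen I receptor chain that the DX5 antibody detects on mouse NK cells. It had 173 and 98.8 CPM in KO 1 and KO 2, against 334, 282, 248 and 245 CPM in WT 1 to WT 4. Both KO libraries were below the lowest WT library, and KO 2 was the lowest of all. The means were 136 ± 52.3 CPM in KO and 277 ± 41.4 CPM in WT, 2.10-fold more in WT (log2 fold change -1.07, SE 0.19, adjusted p = 0.0121). Without KO 2 the log2 fold change was -0.76 and the call was lost (adjusted p = 0.0866).

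Because the pair share a neighbourhood and a class of ligand, they were also compared inside each library, where the scaling cancels. Per kilobase of transcript, Itga1 stood at 1.04 and 2.09 times Itga2 in KO 1 and KO 2, against 0.244 to 0.321 times in WT. The order of the pair was thus reversed in both KO libraries. The difference in log2 ratio was 2.45, with an exact permutation p of 0.0667 (two-sided, 15 assignments, adjusted p = 0.122 over 11 pairs), the smallest p that 2 against 4 libraries allow. Since Itga1 was above the WT range and Itga2 below it, this p was fixed by their levels and is no further test.

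The partners of the beta-7 chain also moved in opposite directions. Itgae (Entrez gene 16407, chr11:73090505-73147449) encodes CD103, which with the beta-7 chain binds E-cadherin and is a mark of lymphocytes retained in epithelia. It had 417 and 1204 CPM in KO 1 and KO 2, against 101, 177, 147 and 132 CPM in WT 1 to WT 4. Both KO libraries were above the WT range, and KO 2 held 2.88 times the level of KO 1. The means were 811 ± 556 CPM in KO and 139 ± 31.7 CPM in WT, a fitted 5.27-fold rise and the largest change among the 10 chains (log2 fold change 2.40, SE 0.27, adjusted p = 2.07e-03). The size depends on the KO library: it was 2.95 without KO 1 and 1.75 without KO 2, and the call was made in both cases.

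Itga4 (Entrez gene 16401, chr2:79255426-79333114, plus strand) encodes CD49d, which binds VCAM-1 with the beta-1 chain and MAdCAM-1 with the beta-7 chain. It had 1657 and 780 CPM in KO 1 and KO 2, against 2384, 2201, 2160 and 1873 CPM in WT 1 to WT 4. Both KO libraries were below the WT range, KO 2 further than KO 1, with 2.13 times as much in KO 1 as in KO 2. The means were 1219 ± 621 CPM in KO and 2154 ± 211 CPM in WT, 1.86-fold more in WT (log2 fold change -0.89, SE 0.20, adjusted p = 0.0275). The log2 fold change was -1.39 without KO 1. Leaving out KO 2 ended the call (log2 fold change -0.46, adjusted p = 0.0853), as did leaving out WT 1 (adjusted p = 0.0697) or the sex term (adjusted p = 0.0752).

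Itgb7 (Entrez gene 16421, chr15:102215994-102233405, minus strand), the partner of both, had 840 and 1172 CPM in KO 1 and KO 2, against 722, 799, 753 and 753 CPM in WT 1 to WT 4. KO 1 stood just above the highest WT library and KO 2 well above it. The means were 1006 ± 235 CPM in KO and 757 ± 32.2 CPM in WT, a fitted 1.32-fold rise (log2 fold change 0.40, SE 0.11, adjusted p = 0.0483). This call was close to the threshold and was lost under 8 of 17 alternatives, among them leaving out KO 2 (log2 fold change 0.18, adjusted p = 0.334). Leaving out WT 1, WT 2, WT 3 or WT 4 gave adjusted p of 0.110, 0.106, 0.0879 and 0.0760 at log2 fold changes of 0.35 to 0.43. Over the 17 alternatives adjusted p ran from 5.14e-03 to 0.334.

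Inside each library, Itgae per kilobase stood at 0.542 and 3.32 times Itga4 in KO 1 and KO 2, against 0.0912 to 0.173 times in WT. The 2 alpha partners of beta-7 were thus nearer to each other in KO 1 and reversed in order in KO 2. Set against the beta-7 chain itself, Itgae stood at 0.291 and 0.601 times Itgb7 in KO 1 and KO 2, against 0.0819 to 0.130 times in WT. Itga4 stood at 0.537 and 0.181 times Itgb7 in KO 1 and KO 2, against 0.677 to 0.899 times in WT. The log2 ratio differed by 3.29 for Itgae to Itga4, 1.98 for Itgae to Itgb7 and -1.31 for Itga4 to Itgb7, each with both KO libraries outside the WT range (exact permutation p = 0.0667, adjusted p = 0.122). The KO library set the size of 2 of these: without KO 2, Itgae to Itga4 differed by 1.98 and Itga4 to Itgb7 by -0.52, and without KO 1 Itga4 to Itgb7 differed by -2.09. Both pairs with Itga4 had to fall outside the WT range, since Itga4 was below it and Itgae and Itgb7 above it.

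The common beta chain of the CD49 group was lower. Itgb1 (Entrez gene 16412, chr8:128685654-128733579, plus strand) encodes CD29 and had 1079 and 785 CPM in KO 1 and KO 2, against 2413, 2321, 2140 and 1946 CPM in WT 1 to WT 4. Both KO libraries were well below every WT library. The means were 932 ± 208 CPM in KO and 2205 ± 206 CPM in WT, 2.39-fold more in WT, with the smallest adjusted p among the 10 chains (log2 fold change -1.26, SE 0.12, adjusted p = 1.22e-03). Its call was made under all 17 alternatives, with log2 fold changes of -1.45 to -1.08.

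With Itgb1 lower and Itga1 higher, the ratio of the pair moved most among those involving beta-1. Itga1 per kilobase stood at 0.166 and 0.262 times Itgb1 in KO 1 and KO 2, against 0.0307 to 0.0387 times in WT (difference in log2 ratio 2.63). Itgb7 stood at 1.22 and 2.34 times Itgb1 in KO 1 and KO 2, against 0.469 to 0.607 times in WT, so that the order of the 2 beta chains was reversed (difference in log2 ratio 1.65). Both had an exact permutation p of 0.0667 (adjusted p = 0.122), which was fixed by the levels, with Itgb1 below the WT range and Itga1 and Itgb7 above it. Itga2 and Itga4, which were lower along with Itgb1, kept ratios to it that overlapped between the groups. Itga4 stood at 0.655 and 0.424 times Itgb1 in KO 1 and KO 2, against 0.404 to 0.430 times in WT (exact permutation p = 0.133, adjusted p = 0.210). Itga2 stood at 0.159 and 0.125 times Itgb1 in KO 1 and KO 2, against 0.115 to 0.138 times in WT (exact permutation p = 0.267, adjusted p = 0.367).

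**Figure D2:**
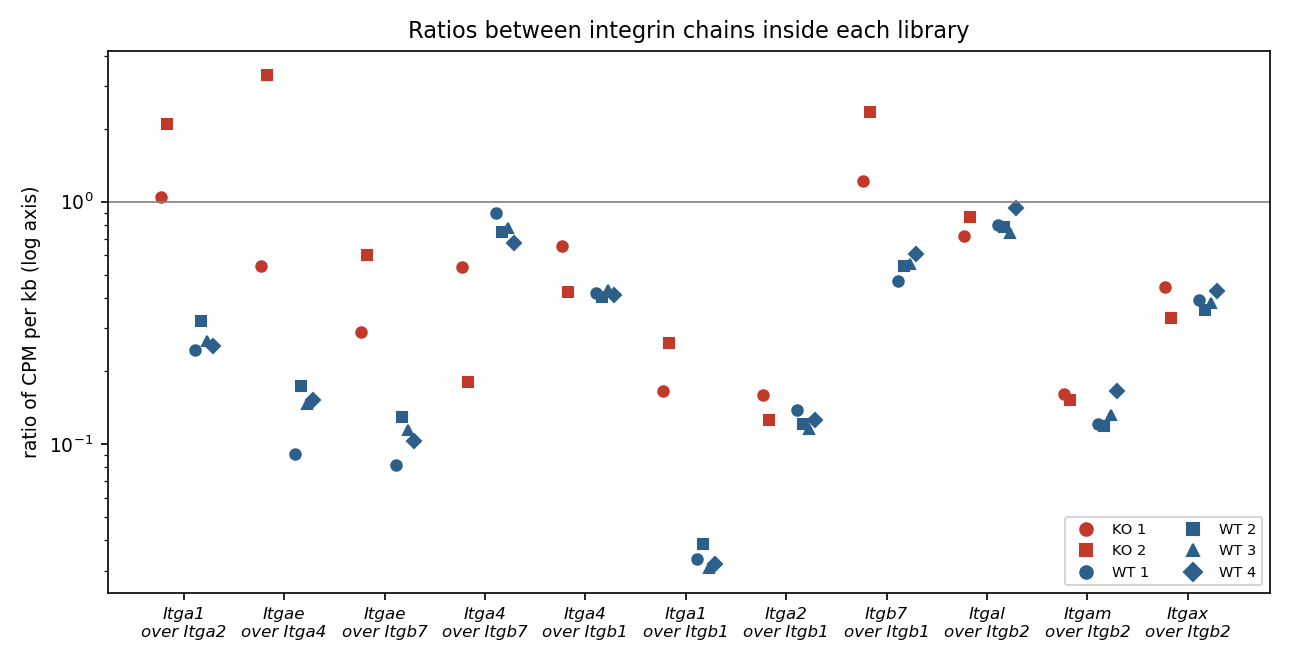
Ratio of CPM per kilobase between 2 integrin chains of the same library for the 11 pairs compared, on a log axis, with KO libraries (red) left of WT libraries (blue) and a line at equal levels. Itga1 over Itga2 and Itgb7 over Itgb1 lie above the line in both KO libraries and below it in every WT library, and the 3 pairs with Itgb2 overlap between the groups.

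The plot of chain ratios shows 6 pairs with both KO libraries outside the WT range and 5 that overlap. All of the 6 but Itgae to Itgb7 set a chain above the WT range against a chain below it. Their position outside the range thus restates the levels of the chains. The leukocyte beta-2 group had the narrowest span, with log2 fold changes of -0.39 to -0.12. Itgal (Entrez gene 16408, chr7:127296139-127335137) encodes CD11a, the alpha chain of LFA-1, which binds ICAM-1 at the contact between an NK cell and its target. It had 1754 and 1778 CPM in KO 1 and KO 2, against 2349, 2359, 2213 and 2325 CPM in WT 1 to WT 4. The KO libraries were nearly equal and both below the WT range. The means were 1766 ± 17.5 CPM in KO and 2312 ± 67.2 CPM in WT, 1.31-fold more in WT (log2 fold change -0.39, SE 0.07, adjusted p = 0.0120). The value stayed at -0.41 to -0.31 over the alternatives, but the call was lost without KO 2 (adjusted p = 0.0514) and without WT 1 (adjusted p = 0.0542).

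Itgb2 (Entrez gene 16414, chr10:77530329-77565708), which encodes CD18, had 1325 and 1123 CPM in KO 1 and KO 2, against 1608, 1651, 1640 and 1357 CPM in WT 1 to WT 4. Both KO libraries were below the WT range, but KO 1 only just below WT 4. The means were 1224 ± 143 CPM in KO and 1564 ± 139 CPM in WT (log2 fold change -0.36, SE 0.10), which missed the threshold (adjusted p = 0.0522). It passed without WT 4 (log2 fold change -0.40, adjusted p = 0.0325) and without WT 3 and WT 4 together (adjusted p = 0.0478). It also passed with no expression filter, with DESeq2 and with limma voom, and over the 17 alternatives adjusted p ran from 8.71e-03 to 0.216.

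Itgam (Entrez gene 16409, chr7:128062640-128118491, plus strand) encodes CD11b, a marker of late NK cell maturation in the mouse. It had 347 and 280 CPM in KO 1 and KO 2, against 319, 320, 353 and 368 CPM in WT 1 to WT 4. The groups overlapped, and the test did not call the gene (log2 fold change -0.12, SE 0.12, adjusted p = 0.541). Its direction turned without KO 2 (log2 fold change 0.04). In the GENCODE M21 transcripts, 65.2% of the 75-base windows of Itgam also occur in the gene Gm49368. No RefSeq gene was found to overlap Itgam, and whether Gm49368 was counted by the authors is not stated. The Itgam count may thus depend on how such reads were assigned.

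Itgax (Entrez gene 16411, chr7:128129526-128150657, plus strand) starts 11034 bases beyond Itgam and encodes CD11c, carried by mouse NK cells and dendritic cells. It had 829 and 524 CPM in KO 1 and KO 2, against 887, 832, 879 and 814 CPM in WT 1 to WT 4. KO 1 lay inside the WT range and KO 2 below it, and the gene was not called (log2 fold change -0.36, SE 0.13, adjusted p = 0.108). Without KO 1 the log2 fold change was -0.66 and the call was made (adjusted p = 0.0168), as it was with no expression filter and with DESeq2. The 3 alpha chains kept overlapping ratios to Itgb2. Per kilobase, Itgal stood at 0.725 and 0.868 times Itgb2 in KO 1 and KO 2, against 0.739 to 0.939 times in WT. The exact permutation p was 0.933 for Itgal, 0.333 for Itgam and 0.933 for Itgax, and with 6 libraries these values do not show that the ratios were equal.

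**Figure D3:**
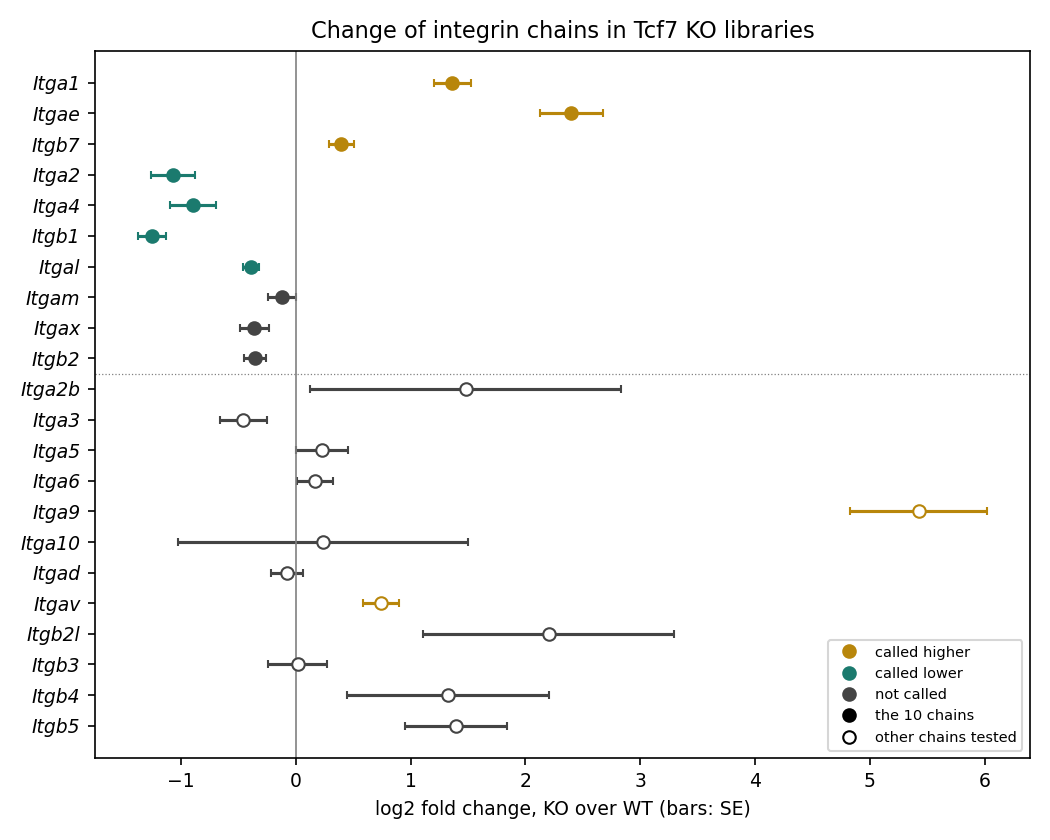
Log2 fold change of KO over WT with its SE for the 10 chains (filled) and the 12 other integrin chains tested (open), coloured by call. Among the 10 chains the values run from -1.26 for Itgb1 to 2.40 for Itgae, and the 3 chains in grey were not called.

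The plot of fold changes sets these chains beside the other integrin genes, whose SEs are widest where reads are few. Per kilobase of transcript, which allows levels of different genes to be compared, the 10 chains stood in another order in each group. In KO, Itgb2 (428 ± 50.1 CPM per kilobase), Itgb7 (376 ± 87.8) and Itgal (338 ± 3.35) came first, with overlap from each to the next, and Itgal stood clear of the chains below. These were Itgb1 (222 ± 49.5), Itgae (177 ± 122), Itgax (168 ± 53.6) and Itga4 (124 ± 63.1), again with overlap from each to the next, and then, each clear of its neighbours, Itgam (67.0 ± 10.1), Itga1 (45.9 ± 4.50) and Itga2 (32.2 ± 12.4). In WT, Itgb2 (547 ± 48.7) and Itgb1 (526 ± 49.2) overlapped at the top, followed by Itgal (442 ± 12.9) and Itgb7 (283 ± 12.0), both separated from their neighbours. Itga4 (219 ± 21.5) overlapped with Itgax (212 ± 8.92), and Itgam (72.6 ± 5.25) overlapped with Itga2 (65.7 ± 9.81). Itgae (30.5 ± 6.94) and Itga1 (17.8 ± 3.11) were the lowest in WT, without overlap. By these means Itgae ranked 5 of 10 in KO and 9 of 10 in WT, Itgb7 ranked 2 and 4, and Itgb1 ranked 4 and 2.

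The KO libraries differed from each other along with sex. Itgae, Itga4, Itga2 and Itgax differed 2.88-, 2.13-, 1.75- and 1.58-fold between KO 1 and KO 2. For the same chains, in this order, the highest and lowest WT libraries differed 1.75-, 1.27-, 1.36- and 1.09-fold. Since KO 1 was the only male and KO 2 the only female KO mouse, sex and the single library cannot be told apart. In a fit with a product term of genotype and sex, 0 of all genes tested were called by edgeR and 1368 had an unadjusted p under 0.05. Among the chains, 4 had an unadjusted p under 0.05 (Itga4, Itgax, Itgae and Itgb7), with a lowest adjusted p of 0.344 for Itga4.

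**Figure D4:**
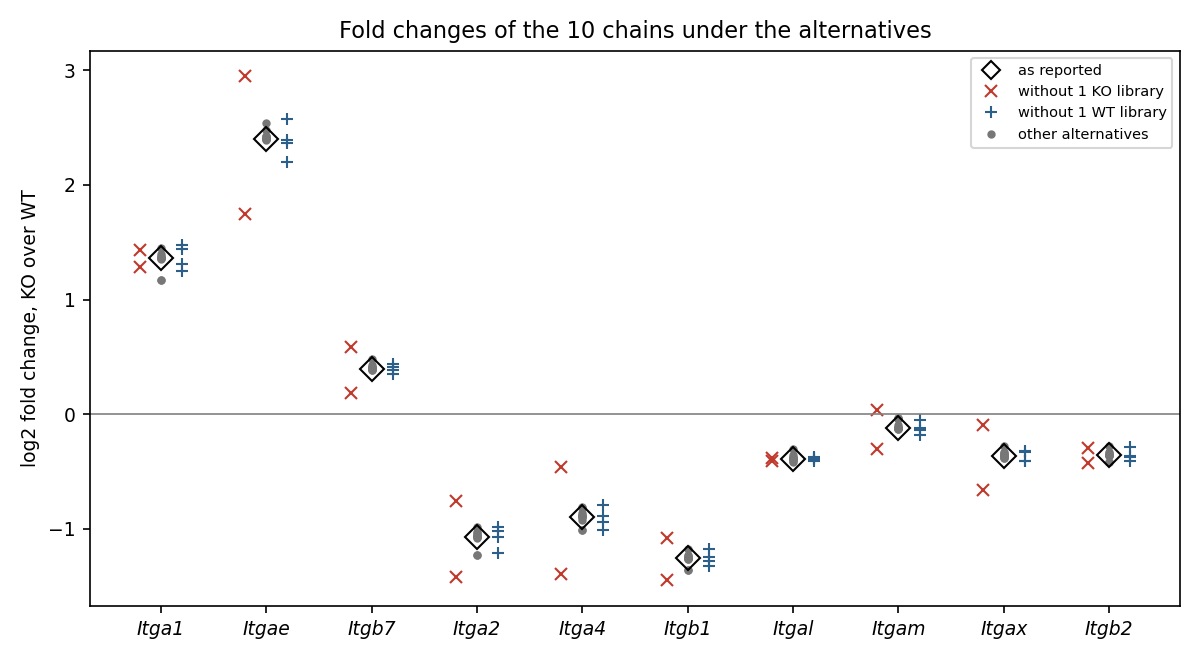
Log2 fold change of KO over WT of the 10 chains as reported (diamond), without a KO library (red crosses), without a WT library (blue plus signs) and under the other alternatives (grey). Itga1, Itgae and Itgb1 stay far from 0 in all of them, Itgam crosses 0, and leaving out a KO library moves Itgae, Itga2, Itga4 and Itgax more than any other alternative.

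The plot of alternatives shows that the KO library left out, rather than the tool or scaling, moved the fold change most for all chains but Itga1, Itgal and Itgb2. Genes whose reads could reach a member were read beside it. Haspin, a kinase gene that lies within the span of Itgae, had 51.9 and 47.7 CPM in KO 1 and KO 2, against 26.4, 27.0, 33.3 and 32.7 CPM in WT 1 to WT 4 (log2 fold change 0.74, adjusted p = 0.0164). Haspin took fewer reads than Itgae in every library. Leaving out KO 1 (log2 fold change 0.67, adjusted p = 0.113) or KO 2 (0.80, adjusted p = 0.0694) ended the Haspin call. Pelo, which lies within the span of Itga1, was not called (log2 fold change 0.36, adjusted p = 0.180), nor was Cerkl at the end of Itga4 (-0.99, adjusted p = 0.187). The library kit does not mark strand, so reads of a stretch that lies in transcripts of both genes cannot be told apart. Of the 75-base windows, Itgae shares 0 with Haspin and Itga1 shares 0 with Pelo. Itga4 shares 6.94% with Cerkl, Itgax 5.01% with Itgad, Itga1 2.92% with Gm49395 and Itgb2 0.210% with Gm14699. Besides Itgam, described above, the remaining chains share 0.

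For each called chain, the genes with the most similar profile over the libraries were listed. Among 5932 genes with a mean of at least 5 log2 CPM, those with the highest Pearson correlation of log2 CPM over the 6 libraries were Nt5e (0.993), Swap70 (0.991) and Ifit1 (0.990) for Itga1, and Tmem64 (0.997), Endod1 (0.991) and Tmem176b (0.991) for Itgae. The other chains had like genes with correlations of 0.989 to 0.997. For Itgb7 they were Rtn4rl1, Ssbp3 and Srp68, for Itga2 Add3, Asap1 and Vezf1, and for Itga4 Ms4a4b, Pfkp and Prkcq. For Itgb1 they were Cobll1, Rasl12 and Ikzf1, and for Itgal Lsm14a, Ndrg1 and Dph3. These describe likeness over 2 KO and 4 WT libraries that share depth and scaling, and nothing more.

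The remaining integrin chains were read as a comparison. Of 17 in the table, 12 were tested, and 2 rose and 0 fell (16.7% called, against 13.7% of all genes, median log2 fold change 0.49). Itga9, whose product binds VCAM-1 and tenascin, had 8.11 and 17.4 CPM in KO 1 and KO 2, against 0.324, 0.560, 0.120 and 0.0807 CPM in WT 1 to WT 4. It was close to the floor in WT and well above it in both KO libraries (log2 fold change 5.42, SE 0.60, adjusted p = 1.81e-03). Itgav, the alpha chain of vitronectin receptors, had 127 and 155 CPM in KO 1 and KO 2, against 92.8, 96.3, 75.9 and 70.7 CPM in WT 1 to WT 4 (log2 fold change 0.74, adjusted p = 0.0222), a call lost without KO 1 (0.88, adjusted p = 0.0639), without KO 2 (0.58, adjusted p = 0.165) and without WT 3 (0.70, adjusted p = 0.0754). Its partners Itgb3 (40.9 and 102 CPM in KO, 57.9 to 78.8 CPM in WT, adjusted p = 0.970) and Itgb5 (6.14 and 25.3 CPM in KO, 3.44 to 6.36 CPM in WT, adjusted p = 0.0804) were not called, although Itgb5 passed when KO 1 (log2 fold change 2.20, adjusted p = 0.0181) or WT 3 (1.67, adjusted p = 0.0430) was left out. Itgb3 had no stable direction (log2 fold change 0.55 without KO 1 and -0.62 without KO 2). Itgb6 was at 0 in all 6 libraries.

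Ligand genes of the integrins had fold changes on both sides of 0. Of 18 ligand genes 14 were tested, and 3 rose and 0 fell (21.4% called, against 13.7% of all genes, median log2 fold change 1.92, the same with Jam2, at 0 in both KO libraries, set to a floor of 3 counts over the group). The fold change was above 0 in 9 of the 14 and below 0 in 5. Both KO libraries were above the WT range in 5 of the 14 and below it in 3. That holds for 20.5% and 18.8% of all genes. Those below were Jam2 and 2 ligands of LFA-1, Icam1 and Icam2, named after their values were seen. Icam1 had 143 and 147 CPM in KO and 149 to 170 CPM in WT (-0.13, adjusted p = 0.448). Icam2 had 53.5 and 38.0 CPM in KO and 59.6 to 67.8 CPM in WT (-0.52, adjusted p = 0.0602). The median rests partly on genes with few reads, such as Jam3 (1.16 and 0.409 CPM in KO, 0 to 0.606 CPM in WT). Cdh1 encodes E-cadherin, the ligand of CD103, and had 131 and 257 CPM in KO 1 and KO 2, against 55.0, 58.3, 38.1 and 40.8 CPM in WT 1 to WT 4. Like Itgae it was above the WT range in both KO libraries and highest in KO 2 (log2 fold change 1.96, SE 0.24, adjusted p = 2.80e-03). Spp1, which encodes osteopontin, had 25.9 and 18.8 CPM in KO and 4.78 to 7.80 CPM in WT (log2 fold change 1.90, adjusted p = 2.72e-03). Vcam1, a ligand of CD49d, had 3.42 and 10.6 CPM in KO and 0 to 0.888 CPM in WT (4.18, adjusted p = 0.0100), a call lost without KO 1 (3.65, adjusted p = 0.0556) and without KO 2 (4.93, adjusted p = 0.0918). The thymic stroma and vessel markers, 9 genes of which 6 were tested and 4 called higher (66.7%, against 8.13% of all genes), summed to 32.6 and 82.0 CPM in KO and 5.87 to 8.92 CPM in WT. Among those not tested, Foxn1 was at 0 in KO 2 and in every WT library, and Pdgfra had reads in WT 1 only. The 12 myeloid markers summed to 160 and 239 CPM in KO and 5.02 to 59.7 CPM in WT (1 of 10 tested called higher, against 8.13% of all genes). The part of these cells in the ligand values was not tested.

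Genes listed for inside-out activation, the opening of integrins from inside, lay mostly below 0 in log2 fold change. The list mixes genes that drive opening with genes known to restrain it, among them Sipa1 (log2 fold change -0.30), Rap1gap2 (-0.25) and Sipa1l1 (0.19). The count below 0 therefore gives no direction of activation. Of 23 such genes 21 were tested, and 0 rose and 3 fell (14.3% called, against 13.7% of all genes, median log2 fold change -0.24, against 0.02 over all genes). The fold change was below 0 in 18 of the 21, and both KO libraries were below the WT range in 11 of them, against 18.8% of all genes. Tln1, which encodes talin, had 1656 and 1888 CPM in KO 1 and KO 2, against 2292, 2325, 2287 and 2056 CPM in WT 1 to WT 4 (log2 fold change -0.34, adjusted p = 0.0484). Stk4, the kinase MST1 of the RAPL pathway (log2 fold change -0.44, adjusted p = 0.0311), and Cyth1, the CD18-binding cytohesin-1 (-0.40, adjusted p = 0.0483), also fell. All 3 calls were lost without KO 1 (log2 fold changes of -0.22 for Tln1, -0.53 for Stk4 and -0.32 for Cyth1), without WT 1, without WT 2, without WT 3 and with library-size scaling, and those of Stk4 and Cyth1 also without KO 2. Their adjusted p in these fits reached 0.283, 0.170 and 0.277. Of 22 adhesion complex genes 21 were tested, 3 rose and 4 fell (33.3% called, against 13.7% of all genes, median 0.05). The kinase gene Src rose (21.8 and 60.1 CPM in KO, 3.72 to 4.52 CPM in WT, log2 fold change 3.20, adjusted p = 1.06e-03). The tetraspanin gene Cd9, whose product associates with integrins, fell (122 and 136 CPM in KO, 218 to 229 CPM in WT, -0.80, adjusted p = 2.80e-03), as did the focal adhesion gene Zyx (578 and 701 CPM in KO, 977 to 1020 CPM in WT, -0.65, adjusted p = 4.23e-03). Dab2 was called higher on few reads, with 1.39 and 2.38 CPM in KO and 0 to 0.0600 CPM in WT, and the call was lost without KO 1, without KO 2 and without WT 3 (adjusted p of 0.0760, 0.184 and 0.0509).

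**Figure D5:**
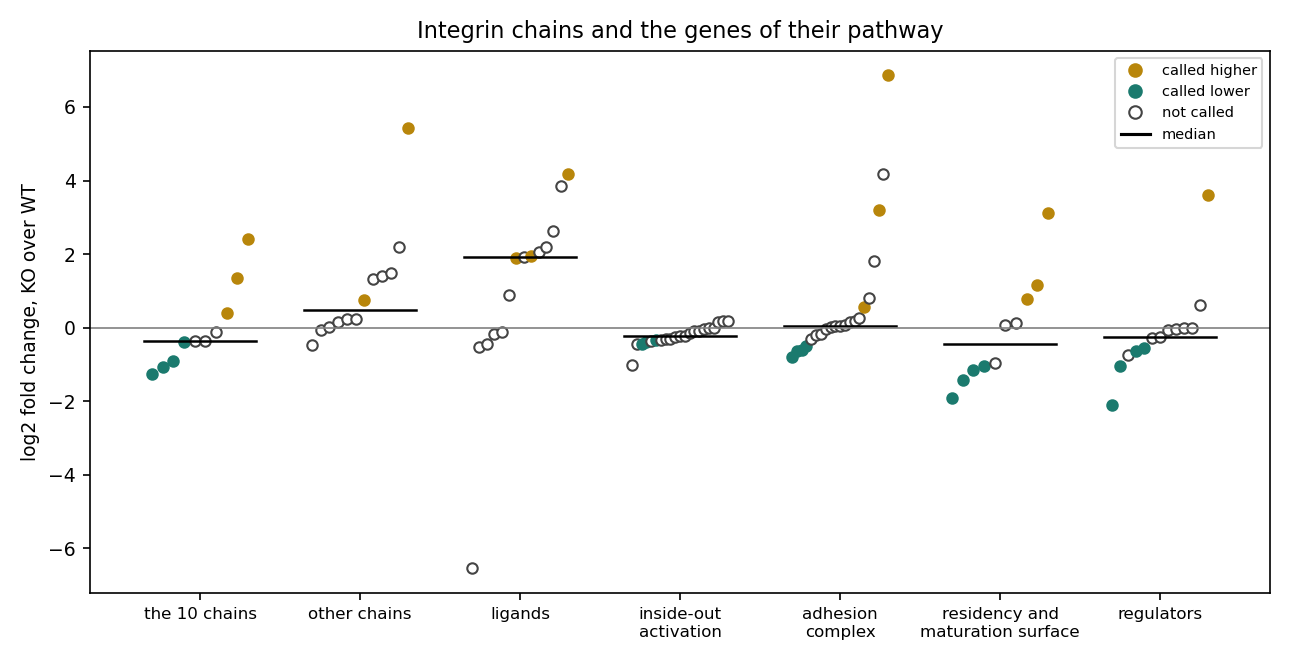
Log2 fold change of KO over WT for each tested gene of 7 lists (points, coloured by call) with the median of each list (bar). The 10 chains and the surface genes hold 7 calls each, in both directions, and 18 of the 21 inside-out activation genes lie below 0. The lowest open point, the ligand Jam2, and the highest point, Dab2, rest on groups with at most 1 read in all, so their fitted values are no measure of size.

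As the plot of the lists shows, calls in both directions were found among the chains, the adhesion complex genes, the surface genes and the regulators. Other surface genes by which residency and maturation are read moved in both directions, as the integrins did. Of 10 genes 3 rose and 4 fell (70.0% called, against 13.7% of all genes, median log2 fold change -0.45). Cxcr6, whose product is a chemokine receptor that marks lymphocytes of tissues, had 521 and 1037 CPM in KO 1 and KO 2, against 69.2, 118, 91.9 and 65.4 CPM in WT 1 to WT 4 (log2 fold change 3.12, SE 0.26, adjusted p = 6.57e-04). Klrg1, a maturation marker, rose (174 and 121 CPM in KO, 54.4 to 75.9 CPM in WT, 1.16, adjusted p = 6.81e-03, and 0.76 without KO 1), whereas Ly6c2, another one, fell (72.4 and 46.6 CPM in KO, 129 to 191 CPM in WT, -1.41, adjusted p = 6.90e-03). The Ly6c2 call was lost without KO 2 (-1.08, adjusted p = 0.0544). Maturation markers thus stood on both sides within this list. Cx3cr1 was also called higher (log2 fold change 0.78, adjusted p = 0.0284). S1pr5 (-1.15, adjusted p = 2.36e-03) and Cd27 (-1.03, adjusted p = 0.0378) were called lower. Neither S1pr1 (-0.97, adjusted p = 0.0963) nor Cd69 (0.14, adjusted p = 0.857) was called.

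Of 14 regulator genes listed, Zfp683 was not found in the count table and has no value here. Of the 13 tested, 1 rose and 4 fell (38.5% called, against 13.7% of all genes, median log2 fold change -0.26). Eomes, a T-box factor gene needed for CD49b on mouse NK cells, had 295 and 140 CPM in KO 1 and KO 2, against 930, 928, 913 and 800 CPM in WT 1 to WT 4 (log2 fold change -2.11, SE 0.22, adjusted p = 1.59e-03). The late maturation factor gene Zeb2 fell as well (61.1 and 51.1 CPM in KO, 103 to 135 CPM in WT, -1.03, adjusted p = 5.62e-03), and so did Klf2, which drives S1pr1 in lymphocytes (383 and 344 CPM in KO, 504 to 608 CPM in WT, -0.63, adjusted p = 9.10e-03), a call lost without KO 2 (-0.58, adjusted p = 0.0732). Spi1, a myeloid and B cell factor gene, was called higher (6.78 and 12.6 CPM in KO, 0.300 to 2.66 CPM in WT, 3.60, adjusted p = 0.0131), a call lost without KO 1, without KO 2, without WT 1 and without WT 3 (adjusted p of 0.0966, 0.0628, 0.0535 and 0.0503). Runx3, which is known to act on Itgae and was named after its values were seen, also passed (191 and 281 CPM in KO, 328 to 356 CPM in WT, -0.54, adjusted p = 0.0382). Its call was lost without KO 1 (-0.29, adjusted p = 0.257), without WT 1, WT 2 or WT 3 (adjusted p of 0.103, 0.0719 and 0.107), with no sex term and with library-size scaling.

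Several of the other cell types whose markers differed also carry these integrins. Beside the alpha-beta T and B cell sums above, the 7 gamma-delta T cell markers, a lineage in which CD103 is common, summed to 692 and 503 CPM in KO and 232 to 386 CPM in WT (4 called higher, 57.1%, against 8.13% of all genes). The 8 dendritic cell markers summed to 208 and 245 CPM in KO and 19.4 to 99.8 CPM in WT (3 called higher, 37.5%). Mast cell and basophil markers summed to 1.91 and 21.2 CPM in KO and 0.527 to 1.86 CPM in WT (0 of 1 tested called), with Fcer1a, Ms4a2 and Gata2 at 0 in KO 1 and in every WT library. Platelet markers summed to 8.52 and 10.2 CPM in KO and 4.53 to 5.64 CPM in WT, with Ppbp at 0 in KO 1 and in every WT library and 0 of 1 tested called. No marker of any list was at 0 in all 6 libraries. Itgax, which both dendritic cells and NK cells carry, had 829 and 524 CPM in KO and 814 to 887 CPM in WT. Its level does not show the part of either. The part of the other cell types in the integrin values was not tested.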

How the data were processed

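Total RNA of sorted cells was made into cDNA libraries with a low-input kit (SMART-Seq v4) and sequenced paired-end on a NextSeq, per the labels' protocols. The deposited values were raw counts per Entrez gene, made by the authors with featureCounts on mm10 per the submitters' processing notes. The sources used here name no aligner, annotation or version. The deposited gene length column was used for CPM per kilobase. The kit amplifies full-length cDNA without molecular identifiers and does not mark strand, so counts are not independent molecules, and the floor of 3 counts covers counting error only. The 6 single-sample tables held identical counts, and 0 columns belonged to other samples. Of 26332 gene IDs, 25275 had a symbol in the RefSeq table of GRCm38.p6, and the 1057 others, with 0.623% of the counts, stayed in the test.

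KO was compared with WT by edgeR 4.0.16 (R 4.3.3; glmQLFit, glmQLFTest) with TMM scaling, filterByExpr and sex as an additive term, and p-values were adjusted over 13652 genes at a threshold of 0.05. Every adjusted p of a gene is from edgeR where no tool is named. There were 3 residual and 4.5 prior degrees of freedom, with a common biological coefficient of variation of 0.239. Scripts were tested on simulated data. Chain ratios are within-library differences of log2 CPM (prior count of 2), tested by exact permutation over 15 assignments and adjusted over 11 pairs. Shared windows of 75 bases were counted in GENCODE M21 transcripts.

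The members and gene lists were chosen with earlier results of these data known. The rule named Tcf7, the 10 chains, overlapping genes, up to 4 called genes of each list by size of change (all called integrin chains), the 2 most expressed where fewer than 2 were called, and 3 similar genes per called chain. 1 gene that the rule named is not reported here. No 2 libraries of a group were alike within counting noise (chi-square over its degrees of freedom 53.7 in KO and 8.86 to 62.2 in WT). The alternatives tried were scaling by RLE, by the upper quartile or by library size, no filter or one of at least 5 CPM in 2 libraries, a fit without sex, a replicate block, DESeq2 1.42.0, limma voom 3.58.1, robust quasi-likelihood, a prior count of 0.5, each library left out, and, added after seeing the data, WT 3 and WT 4 left out together and a product term of genotype and sex.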

Additional observations from a re-analysis of the deposited data

Results flagged for a closer look

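In 5 of the 48 WT groups checked, 1 of the 4 libraries lay far from the rest by Dixon's gap test at its 95% limit, and chance gives about 1 in 20 such groups. WT 4 was the library in 4 of them. Itgb2 had 1357 CPM in WT 4, against 1608 to 1651 CPM in the other WT libraries. Eomes had 800.4 CPM in WT 4, against 913 to 930 CPM in the others, Tln1 had 2056 CPM, against 2287 to 2325 CPM, and Spi1 had 2.66 CPM, against 0.300 to 0.428 CPM. Dab2 had 0.0600 CPM, a single read, in WT 3 and 0 in the others. The part of the early response genes, which were highest in WT 4, in these values was not tested.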

How the results depend on the processing

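Calls of Itga1, Itgae and Itgb1 were made in all 17 alternatives. When 1 library was left out, genes called higher ranged from 550 to 1159 (1110 as reported) and genes called lower from 337 to 749 (762), and integrin chains called lower from 1 (without KO 2) to 5, against 4 as reported. Counts of calls were lowest without KO 2 (550 higher) and without WT 1 (337 lower), and without KO 1 they were 660 and 355. Library-size scaling gave 1336 higher and 523 lower and moved the median log2 fold change of all genes to 0.10. DESeq2 called 1361 genes lower. KO and WT share replicate numbers 1 and 2, but the labels tie them to no litter or day. The correlation of same-numbered deviations was 0.132 for number 1 and -0.0478 for number 2. With 2 KO libraries, the deviations of KO 1 and KO 2 are mirror images, so these values are not separate checks of pairing. The largest correlation, 0.182, was between KO 2 and WT 4, which share no number. With the replicate block 855 genes were called higher and 486 lower, and of the chains only the Itgb7 call was lost (adjusted p = 0.0893). With 1 KO library left out, the lone one is assumed to vary like the WT libraries. Directions turned for values that were not called. Itgam ran from -0.30 to 0.040 over the libraries left out, and Itgb3 from -0.62 to 0.55, with -0.16 under the replicate block and -0.16 without WT 3 and WT 4. The ratio of Itgal to Itgb2 ran from -0.16 to 0.096 on the log2 scale and that of Itgax to Itgb2 from -0.23 to 0.19. A prior count of 0.5 turned none of the 11 ratios. The causes were not tested. Depth limits the rare ligands and chains, not the 10 chains, whose lowest count was 1564 reads.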
